A study of Mus musculus with 9 samples.

Results

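The small RNAs described here are those that the deposited tables of a mouse fetal kidney study file under the type piRNA. A name was taken as a member when its raw reads added up to at least 30 over the 9 libraries, and 654 of the 1189 piRNA names (55.0%) met this limit, among 4078 small RNA names of all types. Members were thus chosen by their summed reads, without regard to group, and those reads are given as description only. The study sequenced small RNAs of whole kidneys at embryonic day 16.5 in 3 groups of 3 libraries: wild type (called control), mice carrying a DROSHA-E1147K transgene, and DROSHA knockout mice. DROSHA is the nuclear RNase that cuts miRNA precursors (hairpins) out of their primary transcripts, and E1147K is a change in the enzyme found in Wilms tumor, a childhood kidney cancer. The labels do not name the promoter of the transgene, the cells in which the gene was removed or the mouse strain. Nor do they say if each library of a group is a different animal, so the p-values below measure the spread among libraries only, and part of it may be technical.

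PIWI-interacting RNAs (piRNAs) are small RNAs, somewhat longer than miRNAs, that are bound by the PIWI proteins and silence transposons, above all in germ cells. They are made from long single-stranded transcripts by a route that does not use DROSHA or DICER, and mature ones carry a methyl group at the 3′ end. Whether a read in these libraries was bound by a PIWI protein was not measured, so the term piRNA-named is used for what the tables call piRNA. Reads of bulk tissue cannot tell fewer cells of a type from less RNA per cell.

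The names fall into 2 kinds. Database names (mmu_piR_ followed by a number) made up 103 of the members, out of 338 such names, and the tables give neither sequence nor position for them. Names of the form novel_pir followed by a number, the tables' own, made up the other 551 members, out of 851 such names. Each novel_pir name carries 1 repeat locus on mm10 with its repeat class, and the 551 names share 222 loci, so names at a shared locus are not independent of each other. The novel_pir names were listed in a library only from 10 reads up, and database names from 1 read up. A novel_pir name absent from a table thus had fewer than 10 reads there, and it is called not listed.

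A group of the novel_pir loci lies on annotated miRNA hairpins, and the hairpins are shown because they are the DROSHA substrates among the positions of these names. Capitals mark the bases inside the locus of the novel_pir names, with locus ends taken as the tables write them (their count from 0 or 1 is not stated). Each sequence is printed on the strand of the hairpin, from RefSeq (GRCm38.p6) for Mir224, Mir582 and Mir340 and from GENCODE vM21 (the same genome build, also called mm10) for Mir669o and Mir669c.
Mir224: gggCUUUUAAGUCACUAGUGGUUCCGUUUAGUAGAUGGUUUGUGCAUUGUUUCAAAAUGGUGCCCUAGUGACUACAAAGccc
Mir582: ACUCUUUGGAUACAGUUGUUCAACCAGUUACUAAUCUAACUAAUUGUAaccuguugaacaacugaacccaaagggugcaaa
Mir340: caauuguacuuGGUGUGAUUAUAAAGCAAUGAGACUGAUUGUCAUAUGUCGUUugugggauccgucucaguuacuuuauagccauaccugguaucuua
Mir669o: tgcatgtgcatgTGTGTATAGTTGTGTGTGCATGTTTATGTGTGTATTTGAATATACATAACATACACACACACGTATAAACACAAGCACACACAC
Mir669c: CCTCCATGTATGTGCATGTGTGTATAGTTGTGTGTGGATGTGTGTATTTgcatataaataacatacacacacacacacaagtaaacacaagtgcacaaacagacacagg
The Mir224 hairpin spans chrX:72261031-72261112 on the minus strand, and 76 of its 82 bases lie in the locus, which is annotated as a DNA transposon. The Mir582 hairpin spans chr13:109324744-109324824 on the plus strand, with 48 of its 81 bases in a LINE/CR1 locus. The Mir340 hairpin spans chr11:50069702-50069799 on the plus strand, with 42 of its 98 bases in a DNA/TcMar-Mariner locus. Mir669o (chr2:10514300-10514395, plus strand, 84 of 96 bases in the locus) and Mir669c (chr2:10509296-10509404, plus strand, 49 of 109 bases) lie in ERVK loci within the gene Sfmbt2. The arms miR-224-5p, miR-224-3p, miR-582-5p and miR-340-5p lie wholly inside their loci, while miR-340-3p has 0 bases in it. The Mir582, Mir340 and Mir669o loci carry the minus sign, opposite to the hairpin. The tables do not state whether that sign is the strand of the repeat or of the reads.

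The libraries held between 31.7 and 42.6 times 1000000 counted reads, of which 136833 to 255818 per library belonged to members. Drosha mRNA was not measured, so the genotypes have no direct check in these data. Known mature miRNAs made up 80.9% to 81.9% of counted reads in controls. They made up 76.9% to 79.1% in the transgene group and 74.7% to 77.0% in the knockout group, below every control. The cause of this lower share was not tested. miRNA markers of kidney epithelium, 6 of 6 detected in every library, summed to 29023 to 34001 CPM (counts per 1000000) in the controls, 18497 to 26334 in the transgene group and 9584 to 22876 in the knockout group. CPM here are reads per 1000000 counted reads, scaled by trimmed means of M values (TMM). Knockout 3 stood apart, with the lowest epithelial sum and the highest sum of striated muscle miRNAs (8499 CPM, against 166 to 1587 in the other 8 libraries). The 2 arms of miR-202, a gonadal miRNA, summed to 454 CPM in control 3 and 1089 in transgene 1, and to between 0.776 and 71.1 in the other 7. The 14 germ cell and early embryo miRNAs summed to 119 CPM in control 3 and 153 in transgene 1, against 7.76 to 54.7 elsewhere. They did not rise together. miR-292a-3p held the largest part, with 62.95 CPM in control 3 and 86.46 in transgene 1. The miR-302 miRNAs did not rise in control 3, where miR-302a-3p (0.969 CPM), miR-302b-3p (0.914) and miR-302c-3p (0.277) were lowest of the 9 libraries. All miR-302 miRNAs of the list were highest in knockout 3 (1.64 to 6.79 CPM), and in transgene 1 they were above every control. miR-367-3p was at 0 in 8 of 9 libraries. The part of other tissues in the results below was not tested.

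Reads were concentrated in few names. The 654 members held 1799272 reads, 99.7% of all piRNA-named reads, with a median of 156.5 reads per member and 299434 for the highest. The 10 members with most reads held 59.7% of member reads. Database names held 46.3% and novel_pir names 53.7% of member reads. In all, 297 members were listed in all 9 libraries (85 database and 212 novel_pir names) and 23 in only 1. At the limit itself, 8 names had exactly 30 reads, and 6 names just below it had 29. Of these, novel_pir796 and novel_pir880 had 30 reads each, listed in 3 and 2 libraries. novel_pir107 and novel_pir336 had 29 reads each, both listed in 2.

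Members made up a small share of the reads in every library, and the groups overlapped. The share was 0.493%, 0.407% and 0.544% of all counted reads in control 1, 2 and 3. It was 0.662%, 0.537% and 0.646% in the transgene libraries and 0.669%, 0.620% and 0.445% in the knockout libraries. Transgene 2 lay just below control 3, and knockout 3 lay below controls 1 and 3. The mean was 0.481% ± 0.0691 (SD, n = 3) in controls, 0.615% ± 0.0677 in the transgene group and 0.578% ± 0.118 in the knockout group. The difference of transgene and control, 0.134 percentage points, had an exact two-sided permutation p of 0.2 (0.45 adjusted over the 3 contrasts), where 0.1 is the smallest p that 3 libraries against 3 can give. Knockout and control differed by 0.0964 points (exact permutation p = 0.3, adjusted 0.45), and knockout minus transgene was -0.0374 points (exact permutation p = 0.7, adjusted 0.7).

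The novel_pir names made up 0.230%, 0.271% and 0.213% of reads in the controls and 0.388%, 0.363% and 0.305% in the transgene libraries, with no overlap between these groups. The knockout libraries held 0.356%, 0.318% and 0.251%, which overlapped both. Database names held 0.264%, 0.136% and 0.331% in controls, 0.274%, 0.174% and 0.340% in the transgene group and 0.313%, 0.302% and 0.193% in the knockout group. A single database name set much of that spread. Without mmu_piR_025576, member shares were 0.374%, 0.401% and 0.395% in controls, 0.531%, 0.522% and 0.504% in the transgene group and 0.543%, 0.497% and 0.424% in the knockout group, so each DROSHA group then lay above every control. These separations depended on scaling: in TMM-scaled CPM the novel_pir sum was 2522, 3047 and 2117 in controls against 4204, 3370 and 2669 in the transgene libraries, and the groups overlapped. The sum without mmu_piR_025576 also overlapped on that scale, at 4107, 4510 and 3926 CPM in controls, 5751, 4844 and 4406 in the transgene group and 4999, 4919 and 4317 in the knockout group. Shares above every control were not particular to piRNA names. Reads filed only as repeat held 3.58% to 4.24% of counted reads in controls. They held 4.97% to 6.98% in the transgene group and 4.82% to 7.04% in the knockout group.

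**Figure D1:**
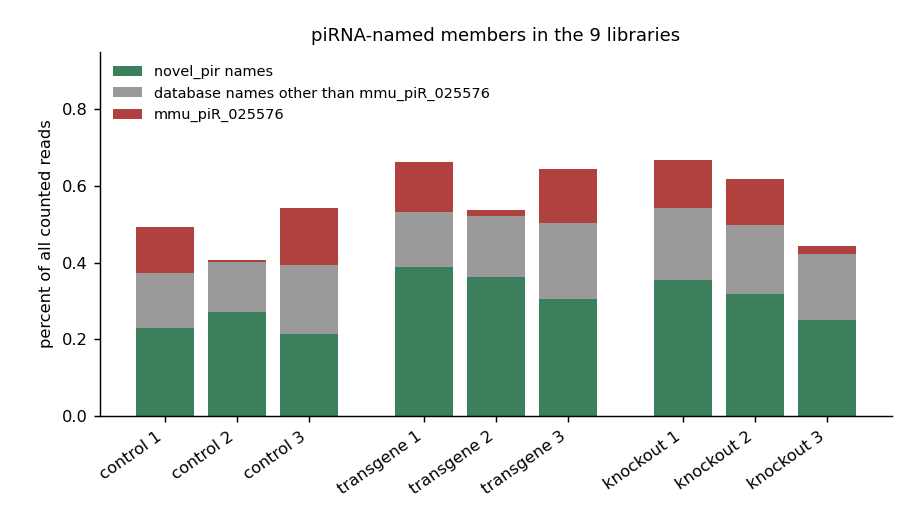
Stacked bars give the percent of all counted reads (y axis) taken by novel_pir names, by mmu_piR_025576 and by the other database names in each of the 9 libraries (x axis). The red part, mmu_piR_025576, is small in control 2, transgene 2 and knockout 3, and the whole bar runs from 0.407% in control 2 to 0.669% in knockout 1.

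The database name with most reads, mmu_piR_025576, was abundant in 6 libraries and low in 1 of each group. It had 1309, 66.1 and 1479 CPM in the controls, 1416, 146 and 1235 in the transgene group and 1154, 1209 and 211 in the knockout group. The highest library was 22.4 times the lowest, and that gap lay within the controls. Its group means, 951 ± 771 CPM (SD, n = 3) in controls, 932 ± 687 in the transgene group and 858 ± 561 in the knockout group, differed by less than the spread within groups.

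The next database name, mmu_piR_017405, had 190, 314 and 644 CPM in controls, 307, 358 and 568 in the transgene group and 546, 709 and 210 in the knockout group. Its groups overlapped. mmu_piR_034411 had 206, 217 and 153 CPM in controls, 241, 164 and 165 in the transgene group and 131, 150 and 115 in the knockout group. All 3 knockout libraries lay below the other 6, with a fitted log2 difference of -0.54 ± 0.25 (SE) from controls (edgeR adjusted p = 0.268) and -0.53 ± 0.25 from the transgene group (adjusted p = 0.579), which did not pass the threshold of 0.05. mmu_piR_031448 had 191, 220 and 114 CPM in controls, 197, 131 and 156 in the transgene group and 115, 124 and 134 in the knockout group, and overlapped between groups.

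mmu_piR_000273 followed libraries rather than groups. It had 265, 62.5 and 52.8 CPM in controls, 73.9, 175 and 99.7 in the transgene group and 79.5, 76.5 and 467 in the knockout group. Control 1, transgene 2 and knockout 3 were the highest of their groups. Among the 723 known mature miRNAs with a mean of at least 1 CPM, the closest in pattern over the 9 libraries was miR-138-5p (Pearson r = 0.99 of log2 CPM), followed by miR-124-3p (r = 0.94), a miRNA of neurons. Of the 4 neural marker miRNAs, miR-137-3p was also close (r = 0.91), but miR-9-5p was lowest in knockout 3 (540 CPM). The sum of the 4 did not follow this name, with 1826 CPM in knockout 3, 2255 in control 2 and 2587 in transgene 1. miR-138-5p had 957, 203 and 155 CPM in controls, 263, 656 and 288 in the transgene group and 233, 223 and 1500 in the knockout group, and so was highest in the same 3 libraries. Its mature sequence, with the seed (bases 2 to 8) in capitals, is shown here because its profile was the closest to any of the 12 members with most reads.
miR-138-5p: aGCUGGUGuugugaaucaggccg
It is encoded at chr8:94324312-94324334 and at chr9:122682898-122682920, both on the plus strand (RefSeq, GRCm38.p6).

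mmu_piR_000691 had 70.1, 103 and 58.6 CPM in controls, 83.8, 85.1 and 98.4 in the transgene group and 152, 101 and 294 in the knockout group. Every knockout library lay above every transgene library, and knockout 2 lay just below control 2. The log2 difference from controls was 1.24 ± 0.41 (edgeR adjusted p = 0.191; DESeq2 adjusted p = 0.0312) and from the transgene group 1.03 ± 0.40 (edgeR adjusted p = 0.579). Without knockout 3, the library with most muscle miRNA, the fitted log2 difference from controls was 0.79 (edgeR adjusted p = 0.301).

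The pattern of mmu_piR_034411 was closest to the let-7 family, miRNAs that rise with differentiation. The correlation of log2 CPM over the 9 libraries was 0.96 with miR-98-5p, 0.96 with let-7g-5p, 0.96 with let-7a-5p and 0.95 with let-7f-5p, a description over points that share library and depth. miR-1306-3p, outside the let-7 family, was as close (0.96). The 4 let-7 miRNAs share 1 seed, GAGGUAG, in capitals below (RefSeq, GRCm38.p6).
miR-98-5p: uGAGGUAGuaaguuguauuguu
let-7g-5p: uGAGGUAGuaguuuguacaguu
let-7a-5p: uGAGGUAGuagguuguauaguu
let-7f-5p: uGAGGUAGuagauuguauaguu
miR-98-5p had 2957, 2668 and 2098 CPM in controls, 3250, 1955 and 1930 in the transgene group and 1563, 1747 and 1026 in the knockout group. Like mmu_piR_034411, it was lower in each knockout library than in the other 6. This did not hold for the other let-7 miRNAs named. In knockout 2, let-7a-5p (24072 CPM) and let-7f-5p (15012) were above control 3 (22783 and 14893). Knockout 2 also had more let-7g-5p (10398 CPM) than transgene 3 (10158).

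The novel_pir name with most reads, novel_pir194, lies in an ERV1 long terminal repeat (LTR) at chr11:57559807-57559926, on the minus strand and outside annotated genes. It had 678, 779 and 588 CPM in controls, 963, 697 and 785 in the transgene group and 868, 831 and 432 in the knockout group, with overlap throughout. ERV1, ERVK and ERVL are classes of endogenous retroviruses, whose LTRs carry their promoters. novel_pir46, in an ERV1 LTR at chr10:74719672-74719795, had 129, 200 and 136 CPM in controls, 216, 155 and 154 in the transgene group and 223, 194 and 181 in the knockout group, also with overlap.

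novel_pir210, in an ERVK LTR at chr11:9975636-9975989, had 136, 292 and 60.6 CPM in controls, 264, 372 and 234 in the transgene group and 554, 409 and 291 in the knockout group. Knockout 3 and control 2 nearly coincided, and the other 2 knockout libraries were above every other one. The log2 difference of knockout and control was 1.36 ± 0.53 (edgeR adjusted p = 0.226). Summed over its 6 member names, the locus had 140, 299 and 63.1 CPM in controls and 570, 421 and 302 in the knockout group, which no longer overlapped. Knockout 3 lay only just above control 2. In the fit over loci, the log2 difference was 1.39 ± 0.53 (edgeR adjusted p = 0.213), which did not pass the threshold.

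A pair of ERV1 loci was highest in transgene 1 and transgene 2. novel_pir121 (chr10:130570054-130570271, minus strand, in an intron of the plus-strand gene Gm31793) had 93.6, 56.0 and 36.1 CPM in controls, 288, 292 and 72.4 in the transgene group and 60.2, 105 and 150 in the knockout group. novel_pir217 (chr12:112020537-112020889, minus strand) had 52.0, 75.1 and 25.3 CPM in controls, 391, 178 and 53.6 in the transgene group and 65.8, 82.0 and 114 in the knockout group. It lies in an intron of Tdrd9, a plus-strand gene whose helicase acts in transposon silencing in male germ cells. The 2 names varied together, with r = 0.91 over the 9 libraries. Transgene 3 lay within the controls' range for each of them, and the log2 differences of transgene and control were 1.81 ± 0.61 and 2.03 ± 0.69 (edgeR adjusted p = 0.611 for each). Without transgene 1, which also had most miR-202, they were 1.64 and 1.28 (edgeR adjusted p = 0.594 and 0.614).

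**Figure D2:**
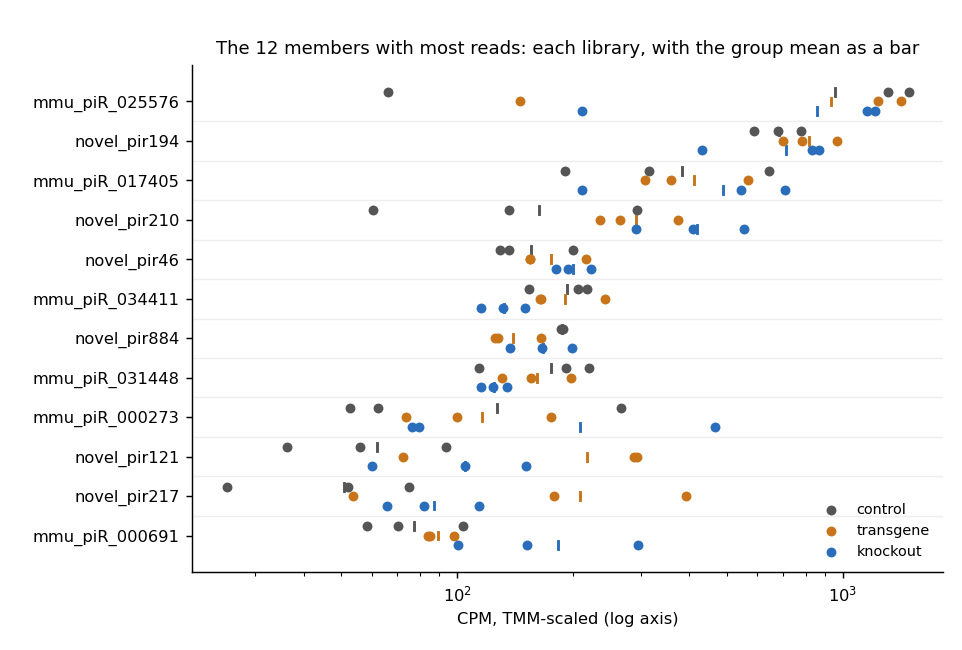
Each point is 1 library's TMM-scaled CPM (log x axis) for 1 of the 12 members with most reads (rows), coloured by group, with the group mean as a short bar. mmu_piR_025576 has 1 low library in each group, and the knockout points of mmu_piR_034411, at 115 to 150 CPM, lie left of all others in that row.

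By repeat class, the 551 novel_pir members were dominated by LTRs of endogenous retroviruses. ERV1 loci (40 loci, 95 names) held 521229 reads and ERVK loci (95 loci, 182 names) 195077 of the 965903 novel_pir member reads. Next came the DNA locus at Mir224 (72939 reads), ERVL-MaLR (27 loci, 49146), hAT-Tip100 DNA transposons (4 loci, 42848), ERVL (13 loci, 30081), the CR1 locus at Mir582 (23048) and L1 (33 loci, 22624). L1, a LINE family with copies still active in the mouse, had more names (97) than ERV1 (95) and far fewer reads. The 10 loci with most reads held 76.3% of novel_pir member reads. Loci were spread unevenly over the genome, with 50 on chromosome 10 and 30 on chromosome 2, against 8 on chromosome 1 and 3 on chromosome 3. Of the 222 loci, 113 lay outside genes, 69 in introns, 33 on miRNA hairpins and 7 in exons of other genes.

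ERV1 names summed to 1278, 1535 and 1048 CPM in controls, 2683, 1856 and 1467 in the transgene group and 1693, 1668 and 1274 in the knockout group. The transgene mean was 1.56 times the control mean, with overlap through control 2 and transgene 3. On CPM without TMM scaling, the ratio was 1.72 and the groups did not overlap. The ERV1 sum was lowest in control 3 and highest in transgene 1, the 2 libraries with raised miR-202, and a link was not tested. ERVK names summed to 420, 629 and 282 CPM in controls, 711, 730 and 508 in the transgene group and 856, 737 and 566 in the knockout group. Both DROSHA groups had higher means (1.46 and 1.62 times control) and both overlapped with control 2. On CPM without TMM scaling, the transgene group no longer overlapped with controls (ratio 1.65) and the knockout group did. The locus of novel_pir210 held 97436 of the ERVK reads, and the other 94 loci had means of 276 ± 55.8 CPM (SD, n = 3) in controls, 344 ± 79.3 in the transgene group and 288 ± 25.9 in the knockout group, with overlap. ERVL-MaLR names summed to 156, 134 and 121 CPM in controls, 159, 148 and 138 in the transgene group and 165, 171 and 177 in the knockout group, where each knockout library lay above the other 6. A single locus held 75.5% of these reads, and the other 26 loci overlapped between groups. The ERVL sum was mostly that of 1 locus, chr3:134773527-134774074 on the minus strand, with 27757 of 30081 reads. That locus had 73.6, 133 and 65.3 CPM in controls, 65.9, 164 and 94.2 in the transgene group and 66.6, 42.5 and 62.8 in the knockout group, with overlap. The other 12 ERVL loci had means of 8.25 ± 1.06 CPM in controls, 7.51 ± 1.30 in the transgene group and 5.82 ± 2.49 in the knockout group, with overlap. These sums carry no test of their own.

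**Figure D3:**
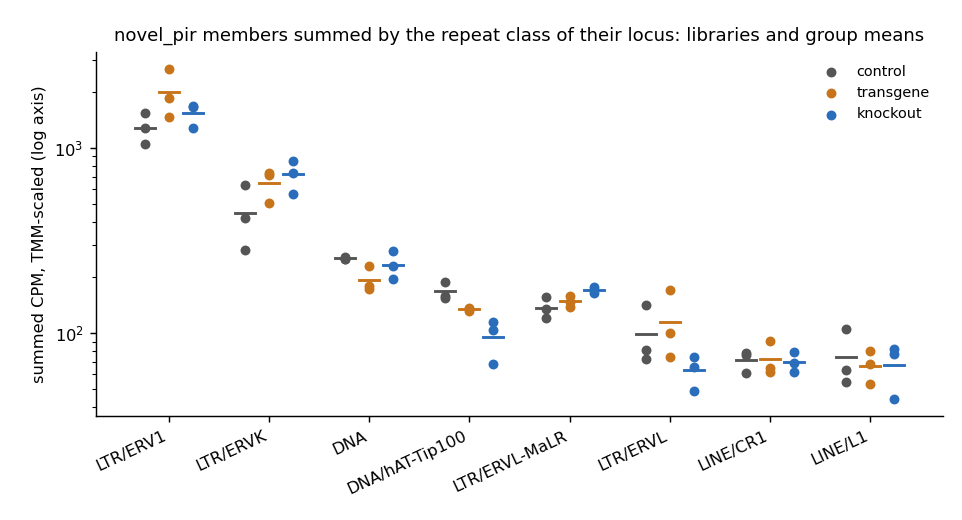
Points give each library's summed TMM-scaled CPM (log y axis) of the novel_pir members in each of 8 repeat classes (x axis), coloured by group, with group means as bars. ERV1 and ERVK are the highest classes, and hAT-Tip100 steps down from controls to the transgene group and to the knockout group.

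A locus whose groups did not overlap was a hAT-Tip100 repeat at chr17:39842998-39843163 on the plus strand, which carried 31 member names and 42255 reads. It overlaps an exon of the noncoding gene Gm26917 (chr17:39843013-39846341, plus strand). The first 151 bases of the Gm26917 transcript, all inside the locus, are printed because 31 names share this stretch (GENCODE vM21, GRCm38).
Gm26917: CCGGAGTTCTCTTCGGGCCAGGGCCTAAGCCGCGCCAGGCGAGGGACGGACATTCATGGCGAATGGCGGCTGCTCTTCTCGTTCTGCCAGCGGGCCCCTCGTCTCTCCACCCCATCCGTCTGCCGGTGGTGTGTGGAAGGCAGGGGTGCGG
Its members summed to 157, 188 and 153 CPM in controls, 134, 134 and 131 in the transgene group and 113, 102 and 66.5 in the knockout group. No 2 groups overlapped. In the fit over loci, the log2 difference was -0.82 ± 0.24 for knockout and control (edgeR adjusted p = 0.156) and -0.33 ± 0.24 for transgene and control (adjusted p = 0.737). On CPM without TMM scaling, the hAT-Tip100 sum of transgene and control overlapped, and that of knockout and control did not. Of the 31 tested names of the hAT-Tip100 class, 30 had a negative log2 difference of knockout and control, with a median of -0.95, and 15 had knockout libraries below every control, where 14.6% of all 1966 features did. They largely share 1 locus and so count as little more than 1 observation.

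Names on miRNA hairpins numbered 93 at 33 loci and held 132471 reads, 13.7% of novel_pir member reads. The locus had the strand sign of the hairpin at 19 loci and the opposite sign at 14. All 19 loci inside Sfmbt2, a gene with a large intronic miRNA cluster, lay on hairpins, and they held 23056 reads. The Mir224 locus summed to 253, 257 and 252 CPM in controls, 230, 173 and 179 in the transgene group and 196, 232 and 277 in the knockout group. Its leading name, novel_pir884, had 186, 188 and 187 CPM in controls and 165, 125 and 128 in the transgene group, below every control (log2 difference -0.42 ± 0.22, edgeR adjusted p = 0.638). miR-224-5p itself was counted at 104, 101 and 110 CPM in controls, 110, 82.8 and 86.4 in the transgene group and 81.5, 95.6 and 174 in the knockout group. The piRNA-named reads at this hairpin were, over the 9 libraries, 217% of those filed under miR-224-5p. No source used here says whether a read can be counted under both types.

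At Mir582 the novel_pir names were likewise above the miRNA, at 78.5, 75.9 and 61.1 CPM in controls against 44.0, 39.1 and 33.1 for miR-582-5p. The group means of the Mir582 locus differed by less than the spread within groups, at 71.8 ± 9.37 (SD, n = 3) in controls, 72.7 ± 16.1 in the transgene group and 70.2 ± 8.56 in the knockout group. Its leading name, novel_pir255, was among the 3 least variable members. At Mir340 the novel_pir names reached 1.35% of miR-340-5p, which had a mean of 540 CPM. Across the 9 libraries the log2 levels of locus and miRNA had a Pearson r of 0.78 for miR-224-5p, 0.84 for miR-582-5p, 0.81 for miR-340-5p, 0.84 for miR-669o-5p and 0.53 for miR-669c-5p. These are not typical of all hairpins: over the 30 pairs of locus and miRNA arm whose miRNA averaged at least 1 CPM, r ran from -0.52 (miR-421-3p) to 0.94 (miR-669f-3p), with a median of 0.50, and 4 pairs were negative. These values are descriptions over 9 libraries in which both measures share depth and tissue. The mature arms, with the seed in capitals, are shown for the 3 hairpins whose arms RefSeq lists (GRCm38.p6).
miR-224-5p: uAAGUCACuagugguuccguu
miR-582-5p: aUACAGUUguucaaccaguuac
miR-340-5p: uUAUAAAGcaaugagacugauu
The seeds differ between the 3, and each arm lies inside the capitals of its hairpin shown above.

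At Sfmbt2 the Mir669o locus had 33.7, 41.9 and 27.4 CPM in controls, 34.9, 31.6 and 31.5 in the transgene group and 22.2, 18.5 and 23.9 in the knockout group, each knockout library below the other 6. miR-669o-5p had 68.0, 90.4 and 49.6 CPM in controls, 90.3, 53.7 and 58.0 in the transgene group and 36.9, 47.9 and 44.5 in the knockout group, also lowest in the knockout libraries. Of 36 tested member names at Sfmbt2 hairpins, 30 had a negative log2 difference of knockout and control (median -0.53), against 22 of 51 at hairpins elsewhere (median 0.14). For transgene and control the median was -0.09 at Sfmbt2. No test compares the 2 sets of hairpins. Over all 1966 features tested, 1034 had a negative log2 difference of knockout and control. The member names at Sfmbt2 share 19 loci and so are not independent of each other.

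**Figure D4:**
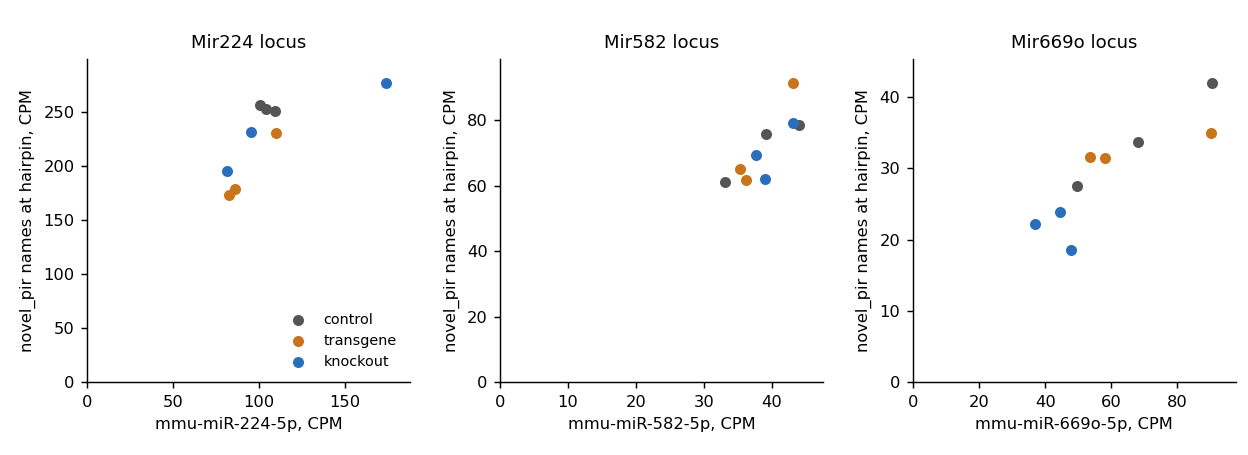
The 3 panels (Mir224, Mir582, Mir669o) plot for each library the summed TMM-scaled CPM of the novel_pir names at the hairpin (y axis) against that of its 5p miRNA (x axis), coloured by group. The piRNA-named reads at Mir224 and Mir582 lie above the miRNA in each library, and the 3 knockout libraries are lowest at Mir669o.

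The transgene was compared with the control to ask which members differ when mutant DROSHA is present. Of the 654 members, 532 passed the filter on low counts (79 database, 453 novel_pir). A name could pass that filter through the group in which it was high, so the counts and medians over tested members are descriptions. None passed an edgeR adjusted p under 0.05, where 0% of all 1966 features tested did. At an unadjusted p under 0.05 there were 41 members (7.71%), against 7.88% of all features. Of these, 29 (5.45%) were higher and 12 (2.26%) lower, against 4.07% and 3.81% of all features. DESeq2 called 9 members (7 higher, 2 lower), 1.69%, against 1.58% of all features. The 2 lower ones were novel_pir234 and novel_pir337, which were listed in control 1, control 3 and knockout 1 alone. Groups did not overlap for 33 members that were higher (6.2%, background 8.49%) and 25 that were lower (4.7%, background 9.77%). The median log2 difference was -0.00 over members and -0.08 over all features tested. It was -0.19 over database names (21 positive, 58 negative) and 0.08 over novel_pir names.

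The smallest p-values of this comparison belonged to 5 novel_pir names, none past the threshold. novel_pir209, at the same ERVK locus as novel_pir210, had 0.773, 0.736 and 0.305 CPM in controls, 9.89, 6.06 and 2.22 in the transgene group and 2.12, 2.06 and 1.38 in the knockout group. The groups did not overlap, and the log2 difference of transgene and control was 3.32 ± 0.61 (edgeR adjusted p = 0.165; DESeq2 adjusted p = 2.05e-05). novel_pir7, in an ERVK LTR at chr10:107100885-107101843, had 1.55, 0.903 and 0.886 CPM in controls and 3.75, 2.19 and 2.27 in the transgene group (log2 difference 1.30 ± 0.36, edgeR adjusted p = 0.577; DESeq2 0.0477). novel_pir6, at the same locus, was not listed in any control and had 0.756, 1.29 and 0.401 CPM in the transgene group, at least 3.13 times the level of 9 reads per control library. In the knockout group it had 0.439, 0.343 and 1.05 CPM, at least 2.35 times that level. novel_pir377 (ERV1, chr17:22137066-22137515) and novel_pir379 (L1, chr17:19604926-19605596) were also not listed in any control, and were at least 1.62 and 2.61 times that level in the transgene group.

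The knockout was compared with the control to ask which members differ when DROSHA is lost. edgeR called 0 members (background 0%). At an unadjusted p under 0.05 there were 61 (11.5%), against 19.4% of all features. Of these, 29 (5.45%) were higher and 32 (6.02%) lower, against 10.2% and 9.26% of all features. DESeq2 called 25 (11 higher, 14 lower), 4.7%, against 9.31%. Groups did not overlap for 41 members that were higher (7.71%, background 10%) and 59 that were lower (11.1%, background 14.6%). The median log2 difference was -0.04 over members and -0.05 over all features. Only 3 of the 79 database names had an unadjusted p under 0.05 (3.8%), against 58 of the 453 novel_pir names (12.8%).

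Of the 5 smallest p-values of knockout and control, 3 belonged to names with lower values in the knockout group, 1 at Gm26917 and 2 at Sfmbt2 hairpins. novel_pir406, at the Gm26917 locus, had 3.17, 3.38 and 2.58 CPM in controls, 2.80, 1.89 and 1.82 in the transgene group and 1.32, 1.18 and 1.20 in the knockout group (log2 difference -1.30 ± 0.27, edgeR adjusted p = 0.111; DESeq2 0.000406). novel_pir521, the leading name of the Mir669o locus, had 29.1, 36.1 and 23.0 CPM in controls, 30.4, 22.1 and 23.5 in the transgene group and 16.1, 15.7 and 15.1 in the knockout group. Its log2 difference of knockout and control was -0.91 ± 0.25 (edgeR adjusted p = 0.185; DESeq2 0.00172). novel_pir531, at the Mir669h hairpin of Sfmbt2 (chr2:10518162-10518244), was listed at 0.283, 0.368 and 0.388 CPM in controls and 0.336, 0.373 and 0.321 in the transgene group, and in no knockout library. The controls were at least 1.34 times the level of 9 reads per knockout library. The other member name of that locus was listed in the knockout libraries, and the locus as a whole had 0.902, 1.34 and 1.11 CPM in controls and 0.362, 0.312 and 0.468 in the knockout group. novel_pir6 and novel_pir377 complete the 5, and novel_pir377 had 0.258, 0.343 and 0.410 CPM in the knockout group.

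Knockout and transgene share no samples with each other, but each is set against the same 3 controls above. Between them edgeR called 0 members (background 0%), and 39 had an unadjusted p under 0.05 (7.33%; background 8.19%). Of these, 16 (3.01%; background 4.12%) were higher and 23 (4.32%; background 4.07%) lower in the knockout group. DESeq2 called 9 (4 higher, 5 lower; 1.69%, background 2.29%). The higher ones included novel_pir234 and novel_pir337, which of these groups were listed in knockout 1 alone. Groups did not overlap for 37 higher (6.95%, background 6.31%) and 40 lower members (7.52%, background 6.26%). The higher ones were 14 of 79 database names (17.7%) and 23 of 453 novel_pir names (5.08%). The lower ones were 4 database names (5.06%) and 36 novel_pir names (7.95%). Database names had a median log2 difference of 0.21 (48 positive, 31 negative) and novel_pir names of -0.18. mmu_piR_015668 had 1.01, 0.895 and 1.18 CPM in the transgene group and 2.58, 2.84 and 1.70 in the knockout group, with 0.928, 1.37 and 1.52 in controls (log2 difference 1.21 ± 0.31, edgeR adjusted p = 0.5; DESeq2 0.0431). mmu_piR_038312 had 0.112, 0.0249 and 0.0535 CPM in the transgene group and 0.749, 0.872 and 0.497 in the knockout group, with 0.0515, 0.234 and 0.637 in controls (log2 difference 3.42 ± 0.95, edgeR adjusted p = 0.5; DESeq2 0.0467). novel_pir92, an ERVL-MaLR name at chr10:42856810-42856927, had 0.532, 0.373 and 0.401 CPM in the transgene group and 1.50, 1.68 and 0.556 in the knockout group, with 0.644, 0.736 and 0.859 in controls. Its log2 difference was 1.51 ± 0.43 (edgeR adjusted p = 0.5). novel_pir644 was listed in the 3 transgene libraries (0.308, 0.621 and 0.374 CPM) and in no other.

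**Figure D5:**
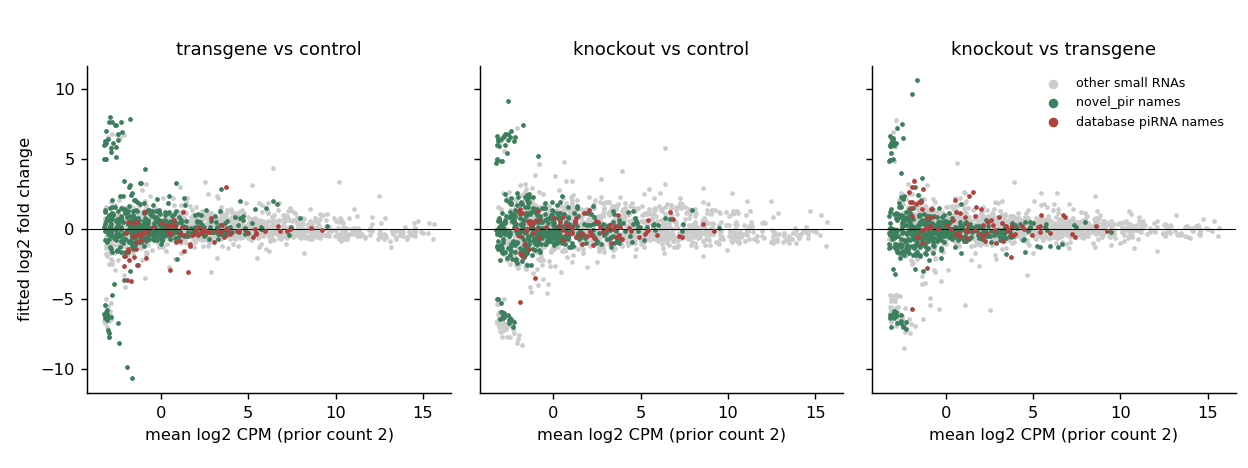
Each panel plots the fitted log2 fold change (y axis) of all 1966 tested features against their mean log2 CPM (x axis) for 1 comparison, with novel_pir and database piRNA names coloured over the other small RNAs. Members lie in the low and middle range of levels, and the separate clouds at large positive or negative values are mostly novel_pir names not listed in 1 of the groups, whose fitted values depend on the prior count.

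Listing alone separated few names. Of the 453 tested novel_pir members, 6 were listed in all transgene and no control libraries, and 6 in all knockout and no control libraries. None was listed in all controls and no transgene library, and 3 were listed in all controls and no knockout library. Over all 9 libraries, 2 members were missing from every control and listed in all 6 other libraries, and 1 was missing from every knockout library and listed in the other 6. Of the 46 novel_pir names with a fitted log2 difference of transgene and control beyond 4 in size, 45 were not listed in any library of 1 group, so these values are no measure of size.

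The spread between libraries was described for the more abundant members. Among the 217 members with a mean of at least 1 CPM, the median SD of log2 CPM over the 9 libraries was 0.58, against 0.50 over 723 known mature miRNAs at the same level. The 3 least variable were novel_pir743 (ERVK, chr5:57215739-57215800; 9.98 to 14.0 CPM), novel_pir255 at Mir582 (48.6 to 70.8 CPM) and mmu_piR_033077 (16.6 to 26.2 CPM). The 3 most variable were novel_pir234, novel_pir337 and novel_pir236, each listed in 3 libraries. novel_pir234 (ERV1, chr12:20782914-20784507) had 7.83 CPM in control 1, 8.78 in control 3 and 16.4 in knockout 1, and novel_pir337 (L1, chr15:65494679-65494802) had 4.23, 5.23 and 8.22 in the same libraries. Neither was listed in the other 6. novel_pir236 (ERVL-MaLR, chr12:18268412-18268758) had 6.46 CPM in control 2, 3.98 in transgene 3 and 3.39 in knockout 1.

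The sum of all members was most like miR-700-3p (Pearson r of log2 CPM 0.80 over 9 libraries), miR-3102-5p.2-5p (0.77) and miR-26b-3p (0.71) among the 723 known mature miRNAs. These are the highest of 723 values over 9 points, given as a description.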

How the data were processed

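Small RNA libraries of whole kidneys at embryonic day 16.5 were analysed, 9 in all and 3 per group, as the labels name them. Per the submitters' processing notes, CASAVA 1.8 and Bowtie2 were used with mm10. Versions of other tools, and how reads matching several names were assigned, are not given in the sources used here. The authors deposited 1 table per library with a raw count and a TPM value per name. The deposited TPM equalled the count per 1000000 counted reads to within 0.005, and only counts were tested. In all, 4 rows that name no RNA (intergenic, intron, exon, repeat) held 10.8% to 16.1% of counts and stayed in the totals.

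All small RNA types were fitted together (1966 features after filterByExpr) with edgeR 4.0.16 in R 4.3.3: TMM, quasi-likelihood test, all groups in 1 fit (common biological coefficient of variation 0.617), and Benjamini-Hochberg adjustment over all features at 0.05. ± after a log2 difference is its standard error. CPM use the TMM factors (0.889 to 1.14). DESeq2 1.42.0 was an alternative. Precision depended on the read totals and on the spread among the libraries of a group. Without molecular identifiers, reads are not independent molecules. Loci were compared with GENCODE vM21 and RefSeq (both GRCm38).

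Named members were the 12 with most reads, the 5 with the smallest p in each contrast, the 3 with the largest and smallest spread, and some of those tied at the read limit. The members and lists were chosen with earlier results of these data known.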

Additional observations from a re-analysis of the deposited data

How the results depend on the processing

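The count of members with an edgeR adjusted p under 0.05 was 0 in each contrast. DESeq2 gave 9 for transgene against control, 25 for knockout against control and 9 for knockout against transgene. With each library left out in turn, the counts ranged from 0 to 0 for transgene against control, 0 to 7 for knockout against control (7 without control replicate 2, all higher, among 12 of 2211 features of all types, and 1, lower, without knockout replicate 3, among 4 of 2213) and 0 to 1 for knockout against transgene (1, lower, without knockout replicate 3, among 4 of 2213). The difference in read share of knockout and transgene, -0.0374 percentage points, ranged from -0.0830 without knockout replicate 1 to 0.0291 without knockout replicate 3 (exact permutation p = 0.8). The cause was not tested. Replicate numbers are shared between the groups, but same-numbered libraries did not vary together (r from -0.22 to 0.09), and a fit with the replicate number as a block called 0 members in each contrast. Scaling by total reads without TMM moved the median log2 difference of all features from -0.08 to 0.09 for transgene and control and from -0.05 to 0.08 for knockout and control, and that of members from -0.00 to 0.14 and from -0.04 to 0.09. The 15 log2 differences followed through 19 alternatives each kept their direction, and 7 passed the threshold under DESeq2 alone. Of the alternatives, 3 were chosen after seeing the data: setting unlisted novel_pir names to 9 reads, summing names per locus and leaving out rows that name no RNA. Summed per locus, 0 of 204 tested loci were called, with 25 (12.3%), 25 (12.3%) and 22 (10.8%) at an unadjusted p under 0.05 for transgene and control, knockout and control, and knockout and transgene, against 7.79%, 20.5% and 8.78% of the 1720 features of that fit. A novel_pir name under 10 reads in a library cannot be told from an absent one.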

Other observations

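These 3 items were chosen after their values were seen. The L1 repeat at chr2:90394491-90395211 on the plus strand carried the most names of any locus, 35, from 1975 reads. It had 34.1 CPM in control 3, against 0.850 and 1.07 in the other controls, 1.15, 0.621 and 0.695 in the transgene group and 6.02, 8.41 and 2.43 in the knockout group. miR-202 was raised in control 3 and highest in transgene 1, which had 1.15 CPM at this locus. The cause of the control 3 level was not tested. In all, 19 novel_pir members, at 5 loci, were listed in control 3 alone.

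mmu_piR_024749 was present at high or low level within each group. Its raw reads were 3099, 76 and 1580 in controls, 2226, 27 and 1928 in the transgene group and 58, 1943 and 12 in the knockout group. Low libraries included control 2, transgene 2 and knockout 3, in which mmu_piR_025576 was also low, and knockout 1, in which it was not.

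mmu_piR_019200 had 7.63, 8.70 and 2.49 CPM in controls, 86.6, 52.8 and 8.91 in the transgene group and 7.24, 11.2 and 19.3 in the knockout group. Transgene 3 lay just above the highest control, and transgene 1 and 2 were far above it, as for novel_pir121 and novel_pir217. The log2 difference of transgene and control was 2.98 (edgeR adjusted p = 0.577; DESeq2 adjusted p = 0.0154).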
